A study of Homo sapiens with 132 samples.

Results

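Afatinib added to trastuzumab for 24 h was studied in MKN7 cells, an established gastric cancer cell line with very high ERBB2 counts. The comparison took the 3 RNA-seq libraries of cells given both drugs (Tra+Afa) and the 3 libraries of cells given trastuzumab alone (Tra), chosen by cell line, treatment and time as labelled, which makes 6 of the 132 libraries of the series. Trastuzumab (Tra) was used at 5 µg/ml and afatinib (Afa) at 0.5 µM, the cells of all groups grew in RPMI medium with fetal calf serum, and no group had an added growth factor. The study's design text describes the samples as biological triplicates, and libraries of both groups that carry the same replicate number were treated as pairs. Trastuzumab was present in both groups, so the difference between them is the effect of afatinib with its solvent in the presence of the antibody. Afatinib came with its solvent and the Tra libraries had none by their labels, so the drug and its solvent cannot be told apart. For setting beside this comparison, 3 others were used: afatinib against untreated cells in MKN7 at 24 h, which shares no library with it, Tra+Afa against Tra in MKN7 at 4 h, and Tra+Afa against Tra at 24 h in NCI-N87 (N87), another gastric cancer line.

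Trastuzumab is an antibody against the extracellular part of HER2, the receptor encoded by ERBB2. Afatinib is a small molecule that binds covalently to the kinase domains of EGFR, HER2 and HER4 inside the cell. ERBB receptors work as pairs, HER3 has hardly any kinase activity of its own and signals through its partners, and active pairs feed the RAS-MAPK and PI3K-AKT pathways. The MAPK pathway switches on growth genes and, with them, its own inhibitors (the Sprouty and DUSP families), whose transcripts are widely read as a measure of pathway output. AKT holds FOXO transcription factors out of the nucleus, and the G1 cyclins release E2F factors that drive the genes of DNA synthesis.

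Total counts of the 6 libraries ranged from 46415942 to 55017992, and 97.49% to 98.26% of the counts fell on protein-coding genes. Epithelial markers were abundant, with a sum of 7259 to 8241 CPM (counts scaled to a common library size) over 11 genes in the Tra libraries and 6090 to 6766 CPM in the Tra+Afa libraries. The 16 markers of blood, vascular, stromal and neuroendocrine cells summed to 22.57 to 29.95 CPM with Tra and 32.53 to 39.86 CPM with Tra+Afa, most of it from COL1A1, and CD68, a macrophage marker, had no count in any of the 6 libraries. On average 23645 genes had at least 1 count with Tra and 24590 with Tra+Afa. The pair of replicate number 3 stood apart in the size of its response. Among the genes called lower, the median log2 difference was -1.53 in pair 3 against -1.20 in pair 1 and -1.21 in pair 2, and the Tra library of replicate 3 was the highest of the 3 Tra libraries for 322 of 422 genes. In afatinib against untreated, the median over the same genes was also largest in replicate 3, at -1.73 against -1.32 and -1.35. Since whole libraries were compared, a change in cell composition, fewer cells of a type and less RNA per cell cannot be told apart.

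Of 18483 genes tested, 1950 were regulated (10.6%), that is, with an edgeR adjusted p below 0.05 and a log2 fold change (log2FC) beyond 1 in either direction. Among them, 1528 were higher with afatinib (8.27% of the genes tested) and 422 were lower (2.28%). By adjusted p alone 5603 genes were higher (30.3%) and 5242 were lower (28.4%), or 58.7% in either direction, most of them by small shifts. The largest changes were ranked among protein-coding regulated genes with a mean of at least 1 log2 CPM that moved alike in all pairs. The steepest falls were in TNS4, TGM2, EGR1, ETV5 and COL13A1, and the steepest rises in PSG5, GASK1B, PSG1, GLYAT and SUSD2. This mean spans both groups, so a gene that rose could reach it through its level with afatinib. PSG1, for example, was at 1.96 CPM with Tra and 12.1 CPM with Tra+Afa in the mean. Higher and lower genes differed in gene type and level. Of the higher genes 52.3% were protein-coding and 71.1% had a mean below 1 log2 CPM, whereas of the lower genes 77.7% were protein-coding and 44.1% lay below that level. Over all genes tested these shares were 75.1% and 33.6%. The higher genes made up 78.4% of regulated genes, 65.2% of those at or above 1 log2 CPM, and 85.8% when libraries were scaled by their size alone, a scaling that moved the median of all genes by 0.11 (log2). Without replicate 3, 1559 genes were regulated.

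**Figure D1:**
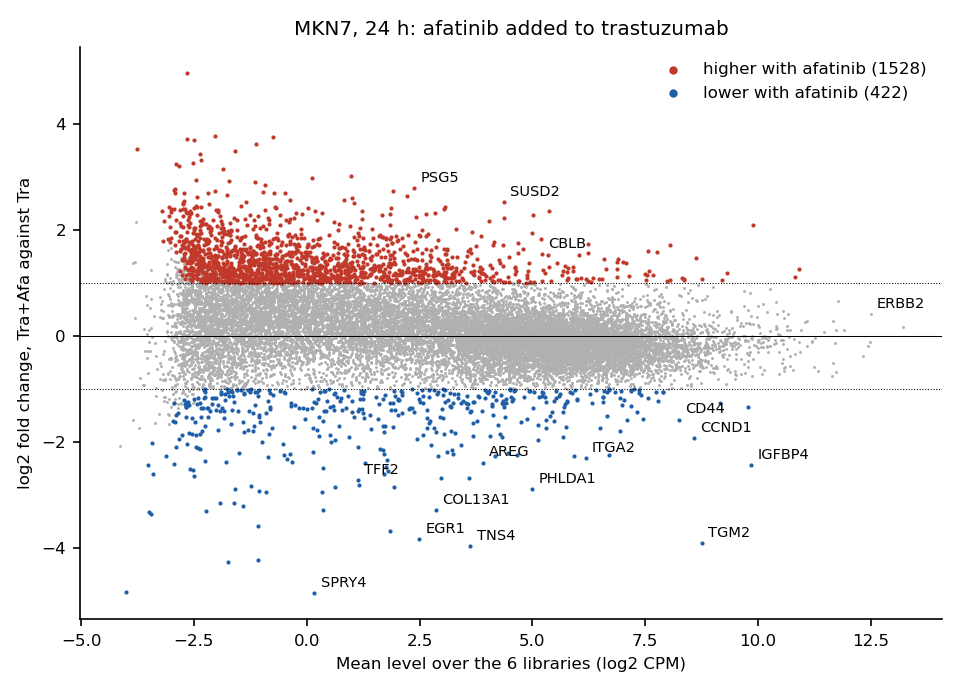
Log2 fold change of Tra+Afa against Tra in MKN7 cells at 24 h (y axis) against the mean level over the 6 libraries in log2 CPM (x axis), with 1 point per gene tested, red for the 1528 genes called higher, blue for the 422 called lower and grey for the rest. The red points crowd at low levels, while TGM2, IGFBP4 and CCND1 fell from a high level.

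The target receptors themselves moved little. EGFR had 376.5, 436.4 and 533.8 CPM in the Tra libraries of replicates 1, 2 and 3, and 271.1, 300.5 and 291.5 CPM in the Tra+Afa libraries. The groups did not overlap, as in 52.2% of all genes tested, and EGFR fell by 0.63 on the log2 scale (SE 0.08, edgeR adjusted p = 8.5e-07). ERBB2, the gene of HER2, had 5517, 5450 and 4222 CPM with Tra and 6787, 6965 and 6365 CPM with Tra+Afa, and here again every Tra+Afa library lay above every Tra library. Its log2FC was 0.42 (SE 0.06, edgeR adjusted p = 4.4e-06). ERBB3 encodes the partner receptor HER3 and rose from 41.2 ± 5.09 CPM to 60.5 ± 4.99 CPM (SD, n = 3), a log2FC of 0.56 (SE 0.05). ERBB4 was at 8.93 ± 0.351 CPM with Tra and 12.2 ± 0.432 CPM with Tra+Afa (SD, n = 3), a log2FC of 0.45 (SE 0.12). All 4 receptor genes passed the adjusted p threshold, as did 58.7% of all genes tested. Of the 4, 3 went upward and 1 downward, and none reached a log2FC beyond 1.

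ERBB ligands fell where they had been abundant. AREG, which encodes the EGFR ligand amphiregulin, had 33.68, 24.25 and 49.69 CPM with Tra and 6.744, 3.934 and 10.46 CPM with Tra+Afa. Within each pair the drop was about equal although the starting levels differed, and AREG was 5.22-fold lower (log2FC -2.38, SE 0.07, edgeR adjusted p = 9.1e-17). Its chromosomal neighbour EREG (epiregulin), at 99.09, 76.56 and 129.4 CPM with Tra, was at 25.91, 16.57 and 42.31 CPM with Tra+Afa, 3.76-fold lower. HBEGF, a ligand of both EGFR and HER4, had 65.31, 62.01 and 89.26 CPM with Tra and 32.77, 32.92 and 31.28 CPM with Tra+Afa (log2FC -1.14, SE 0.17). The groups of these 3 ligands did not overlap, as in 52.2% of all genes tested. TGFA, another EGFR ligand, fell by 0.56 (log2) and stayed short of the fold limit. Of 11 ligand genes 9 were tested, 3 were regulated and all 3 were lower, beside 2.28% regulated lower among all genes tested. NRG1, NRG2, NRG3, NRG4 and BTC did not pass the adjusted p threshold, the 4 neuregulins at 1 CPM or less in the mean of both groups.

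The MAPK feedback and immediate early genes had the lowest median of the 22 gene lists. Of 29 listed genes 26 were tested, 22 were regulated lower and none higher, beside 2.28% and 8.27% of all genes tested. The median log2FC was -1.56, beside 0.04 over all genes tested. SPRY4, a Sprouty inhibitor of RAS-MAPK signaling, had 3.649, 4.857 and 9.664 CPM with Tra and 0.302, 0.0684 and 0.273 CPM with Tra+Afa (log2FC -4.84, SE 0.34, edgeR adjusted p = 7.9e-11). EGR1, an immediate early transcription factor, had 16.55, 21.64 and 25.65 CPM with Tra and 1.49, 1.539 and 1.418 CPM with Tra+Afa, 14.2-fold lower. The 3 Tra+Afa libraries lay almost on 1 value while the Tra libraries were spread. ETV5, an ETS family factor induced by MAPK signaling, had 9.437, 9.426 and 21.23 CPM with Tra and 1.168, 0.804 and 1.091 CPM with Tra+Afa, 12.7-fold lower. DUSP6, the phosphatase that inactivates ERK, was at 4.18 ± 2.86 CPM with Tra and 0.412 ± 0.0573 CPM with Tra+Afa (SD, n = 3; log2FC -3.28, SE 0.33). The Fos family member FOSL1 (log2FC -2.24), SPRED1 (-2.22), SPRED2 (-2.20) and MYC (-1.23) were also regulated lower. JUN passed only the adjusted p threshold (-0.30), and SPRED3 (-0.23), IER2 (-0.08) and EGR3 (-1.73, below 0.1 CPM in the mean of both groups) did not pass it. The median of the list was -1.32 without replicate 3.

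Serum response factor and its ERK-activated partners act on many immediate early genes through a 10-base AT-rich element, the CArG box. The stretch of the EGR1 promoter from 180 bases before to 20 bases after its start site is shown because EGR1 was among the steepest falls; it lies on the plus strand at chr5:138465299-138465498 (RefSeq, GRCh38.p14), and capitals mark the 2 matches to the CArG box, which begin 105 and 83 bases before the start site.
EGR1: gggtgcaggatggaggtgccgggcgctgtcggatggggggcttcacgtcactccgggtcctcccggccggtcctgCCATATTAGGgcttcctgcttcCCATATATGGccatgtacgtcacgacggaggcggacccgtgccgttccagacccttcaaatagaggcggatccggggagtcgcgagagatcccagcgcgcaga
This motif was chosen after the sequence was seen. It was present in 1.29% of 27305 windows of 300 bases (1 per gene, 250 before and 50 after the start), in 1 of 18 windows found for the MAPK list and in 2 of 9 found for the 15 largest falls. The match is a description of the letters and says nothing of binding in these cells.

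Cell cycle genes formed a broad and shallow fall. All 41 of the 43 listed S phase genes that were tested were lower at the adjusted p threshold, with log2FC from -1.16 to -0.31 and a median of -0.69, yet only RRM2 and DSCC1 were regulated. Over all genes tested, 28.4% were lower by adjusted p and 2.28% were regulated lower. RRM2, the small subunit of ribonucleotide reductase, had 250.2, 285.2 and 321.8 CPM with Tra and 110.8, 115.7 and 159.7 CPM with Tra+Afa. Its log2FC was -1.16 (SE 0.06, edgeR adjusted p = 8.6e-13), and the groups did not overlap, as in 52.2% of all genes tested. PCNA, the clamp of the replicative polymerases, had a log2FC of -0.84, and the helicase subunits MCM2, MCM4, MCM5 and MCM6 ranged from -0.67 to -0.55. The G2/M list behaved alike, with 53 of 53 tested genes lower by adjusted p, a median of -0.63, and only PSRC1 and AURKB regulated. AURKB, a kinase of chromosome segregation, had 129.2, 123.7 and 163.2 CPM with Tra and 67.26, 56.61 and 78.79 CPM with Tra+Afa. The falls were thus uniform in direction and small in size, and the medians by pair were -0.73, -0.81 and -0.55 for S phase and -0.59, -0.67 and -0.60 for G2/M.

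The promoters of the S phase genes were searched for short motifs. Promoter letters are the same under any treatment, so the shares below describe the lists and say nothing of binding in these cells. An E2F site (the letters TTCGCGC, the letters TTCCCGC or else the letters TTGGCGC, on either strand) was present in 25 of the 31 S phase windows found in RefSeq (80.6%) and in 11.2% of all 27305 windows. It was present in 9 of 44 G2/M windows (20.5%), in 1 of 18 MAPK windows (5.56%), in 1 of 9 windows of the largest falls and in 0 of 8 windows of the largest rises. The motifs for ETS (CCGGAAG), FOXO (GTAAACA) and the E-box (CACGTG) were in 10.7%, 3.41% and 7.43% of all windows, and in 6, 0 and 2 of the 31 S phase windows. AP-1 (TGANTCA) was in 7.76% of all windows and in 4 of the 8 windows found for the 15 largest rises, those of TCHHL1, TRIM54, TRIML2 and VTCN1. The 3 promoters below belong to the S phase genes with the steepest falls among those with an E2F match in the stretch shown, from 180 bases before to 20 bases after the start, 5′ to 3′ on the gene's strand with the E2F match in capitals. They are CDCA7 (plus strand, chr2:173354692-173354891), TYMS (plus strand, chr18:657473-657672) and CLSPN (minus strand, chr1:35769959-35770158), all RefSeq, GRCh38.p14.
CDCA7: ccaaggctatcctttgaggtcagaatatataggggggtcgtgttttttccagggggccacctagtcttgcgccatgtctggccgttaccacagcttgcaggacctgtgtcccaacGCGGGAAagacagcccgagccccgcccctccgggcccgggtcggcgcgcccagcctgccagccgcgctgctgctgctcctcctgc
TYMS: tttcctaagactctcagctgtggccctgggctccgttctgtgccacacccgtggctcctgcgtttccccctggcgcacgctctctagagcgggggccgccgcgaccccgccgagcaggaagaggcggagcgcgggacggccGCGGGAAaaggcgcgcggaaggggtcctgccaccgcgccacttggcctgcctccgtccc
CLSPN: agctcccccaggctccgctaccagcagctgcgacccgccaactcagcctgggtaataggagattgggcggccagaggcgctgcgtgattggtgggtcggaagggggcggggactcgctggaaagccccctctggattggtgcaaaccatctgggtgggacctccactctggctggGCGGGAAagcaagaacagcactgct
The match begins 65, 39 and 5 bases before the start site in CDCA7, TYMS and CLSPN. In expression, CDCA7, which encodes a chromatin protein of cycling cells, was at -0.95 (log2FC), TYMS (thymidylate synthase) at -0.92 and CLSPN (claspin, of the replication checkpoint) at -0.88.

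Among G1 cyclins and CDK inhibitors, CCND1 fell and CDKN1C rose. Whether these changes bear on the S phase genes was not tested. CCND1 encodes cyclin D1, the partner of CDK4 and CDK6, and had 623.1, 757.1 and 904.9 CPM with Tra and 187.8, 202.9 and 203.4 CPM with Tra+Afa, 3.81-fold lower (log2FC -1.93, SE 0.08, edgeR adjusted p = 2.8e-14). The CDK inhibitor gene CDKN1C (p57) had 9.353, 7.879 and 6.069 CPM with Tra and 34.53, 32.75 and 36.82 CPM with Tra+Afa, 4.48-fold higher. In both genes the groups did not overlap, as in 52.2% of all genes tested. CCNE1 (cyclin E1, log2FC -1.01) and CDKN2D (p19, -1.21) were regulated lower, CDKN1B (p27) passed the adjusted p threshold at 0.41, and CDKN1A (p21) had a log2FC of -0.47 that did not pass. Of 17 genes tested in this list, 1 was regulated higher and 3 lower, beside 8.27% and 2.28% of all genes tested. By adjusted p 12 were lower, beside 28.4% of all genes tested.

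Ribosome biogenesis and glycolysis genes also fell in a shallow manner. Of 28 ribosome biogenesis genes 27 were lower by adjusted p, with a median log2FC of -0.67, and none was regulated. TCOF1 and BOP1, both needed for ribosomal RNA processing or synthesis, were lowest at -0.99. Of 18 glycolysis genes 16 were lower by adjusted p (median -0.61), and HK2, the hexokinase of many tumor cells, was regulated at -1.21. In the list of amino acid supply and ATF4 targets 9 of 18 were lower and 3 higher by adjusted p, with MTHFD2 at -0.95 and CTH at 0.84. In cholesterol and fatty acid synthesis 8 of 28 were lower and 6 higher by adjusted p, beside 28.4% and 30.3% of all genes tested. The median was -0.07, or 0.04 with libraries scaled by size alone and 0.10 in afatinib against untreated, and the fatty acid elongase ELOVL6 was its only regulated member (-1.26). Lysosome and autophagy genes went the other way, 13 of 23 higher and 1 lower by adjusted p with a median of 0.18, and GABARAPL1 (0.99), ULK1 (0.87) and GAA (0.84) were highest without reaching the fold limit.

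In the PI3K branch, FOXO and feedback genes were mostly higher. Of 20 tested, 14 were higher and 5 lower by adjusted p, beside 30.3% and 28.4% of all genes tested. The median log2FC was 0.41, and 2 were regulated, beside 10.6% of all genes tested. PIK3IP1, an inhibitor of PI3K, had 6.837, 6.71 and 5.794 CPM with Tra and 16.51, 16.25 and 12.51 CPM with Tra+Afa (log2FC 1.22, SE 0.08, edgeR adjusted p = 2e-11). TNFSF10, the death ligand TRAIL, was at 0.364 ± 0.125 CPM with Tra and 1.02 ± 0.376 CPM with Tra+Afa (SD, n = 3; log2FC 1.46, SE 0.24). INSR (0.41), IGF1R (0.50) and FOXO4 (0.88) rose, and the adaptor genes IRS1 (-0.88) and IRS2 (-0.84), often named as FOXO targets, fell.

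Among 14 BCL2 family genes, BCL2 itself had the lowest log2FC of -2.49. This anti-apoptotic gene had 2.244, 2.716 and 4.123 CPM with Tra and 0.463, 0.393 and 0.764 CPM with Tra+Afa, 5.60-fold lower (edgeR adjusted p = 3.5e-12). The other anti-apoptotic members BCL2L1 (log2FC -0.82) and MCL1 (-0.47) fell by less. Of the BH3-only genes, whose proteins promote apoptosis, BMF was at 4.04 ± 0.403 CPM and 9.87 ± 1.14 CPM (log2FC 1.28), HRK at 4.69 ± 1.65 CPM and 12.6 ± 2.66 CPM (1.45) with Tra and Tra+Afa (SD, n = 3), and BCL2L11 (BIM) rose by 0.49. BID (-0.60), PMAIP1 (-0.57) and BIK (-0.45), which also promote apoptosis, fell. By adjusted p, 4 of the 14 were higher and 7 lower, beside 30.3% and 28.4% of all genes tested.

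The list of adhesion, matrix and motility genes held TGM2 and TNS4. Both led the falls among protein-coding regulated genes of at least 1 log2 CPM that moved alike in all pairs. TGM2, the crosslinking enzyme transglutaminase 2, had 1395, 1558 and 2125 CPM with Tra and 105.7, 102.6 and 128.6 CPM with Tra+Afa, 14.9-fold lower (log2FC -3.90, SE 0.08, edgeR adjusted p = 3.5e-19). TNS4, a tensin that links to integrins, had 40.33, 44.65 and 63.52 CPM with Tra and 2.919, 3.557 and 2.909 CPM with Tra+Afa, 15.6-fold lower. The hyaluronan receptor CD44 (439, 492.2 and 680.2 CPM against 175.8, 171.5 and 184.1 CPM), the collagen receptor subunit ITGA2 (log2FC -2.30), ITGA6 (-1.57), the hyaluronan synthase HAS3 (-1.40), the transcription factor ETS1 (-1.58) and the protease MMP9 (-1.85) were regulated lower too. TIMP2, a protease inhibitor, was the only member of the list regulated higher, from 419 to 870 CPM in the mean (log2FC 1.06). In all, 8 of 33 tested genes were regulated lower and 1 higher, beside 2.28% and 8.27% of all genes tested. By adjusted p 20 were lower and 5 higher, beside 28.4% and 30.3%. IGFBP4, which binds insulin-like growth factors and was in no list, fell from 2176 ± 469 CPM to 400.1 ± 59.6 CPM (SD, n = 3).

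Genes of gastric and intestinal differentiation split by gene rather than moving together. Of 46 listed genes 27 were tested, 10 were regulated higher and 3 lower, beside 8.27% and 2.28% of all genes tested. The median log2FC was 0.81. ZG16, a goblet cell protein that binds bacteria, had 6.543, 4.335 and 1.374 CPM with Tra and 25.83, 20.51 and 15.84 CPM with Tra+Afa, 5.43-fold higher. DPP4, a brush border peptidase, was at 2.02 ± 0.520 CPM and 6.77 ± 1.23 CPM (log2FC 1.76), and the membrane mucin MUC4 at 37.8 and 93.9 CPM in the mean (1.31). SPINK4 (1.69), FCGBP (1.51), AGR2 (1.41), LGALS4 (1.39), MUC5B (1.35), ALPI (1.29) and CDX2 (1.11), the intestinal master regulator, were also regulated, from means below 1 CPM with Tra. TFF2, a peptide of gastric mucous neck cells, moved the opposite way, from 5.306, 3.778 and 7.993 CPM to 1.067, 0.633 and 0.873 CPM, 6.57-fold lower. TFF1, of surface mucous cells, was at 1.44 ± 0.879 CPM and 0.179 ± 0.0478 CPM (log2FC -2.94), and KLF4 fell by 1.18. CTSE, the gastric protease cathepsin E and no member of the list, was 5.25-fold lower, at 5.809, 5.163 and 5.604 CPM against 1.067, 1.06 and 1.018 CPM.

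Chemokine and cytokine genes were more often lower than higher. Of 25 tested, 7 were regulated lower and none higher, and 14 were lower and 5 higher by adjusted p. Over all genes tested, 2.28% were regulated lower and 8.27% higher, and 28.4% were lower and 30.3% higher by adjusted p. CXCL8, a neutrophil attractant, had a log2FC of -1.31, IL11 of -1.94, IL1A of -2.18, CSF2 of -1.96 and IL1B of -1.79. IL6 was the highest member at 0.88, from 15.6 to 28.7 CPM in the mean. JAK, STAT and SOCS genes had no regulated member of 25 and a median of -0.03, which turned to 0.08 with libraries scaled by size alone, and STAT2 (0.90) and PIAS1 (0.88) were highest. Of 19 interferon-stimulated genes 3 were regulated higher (GBP2, 1.18, and RSAD2 and IFI44L, both below 1 CPM in the mean), and 10 were higher and 1 lower by adjusted p. The groups overlapped for RSAD2 and IFI44L, IFI44L was higher in 2 of 3 pairs, and both lost their call without the replicate block and without replicate 1, IFI44L also in DESeq2 and without replicate 2.

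**Figure D2:**
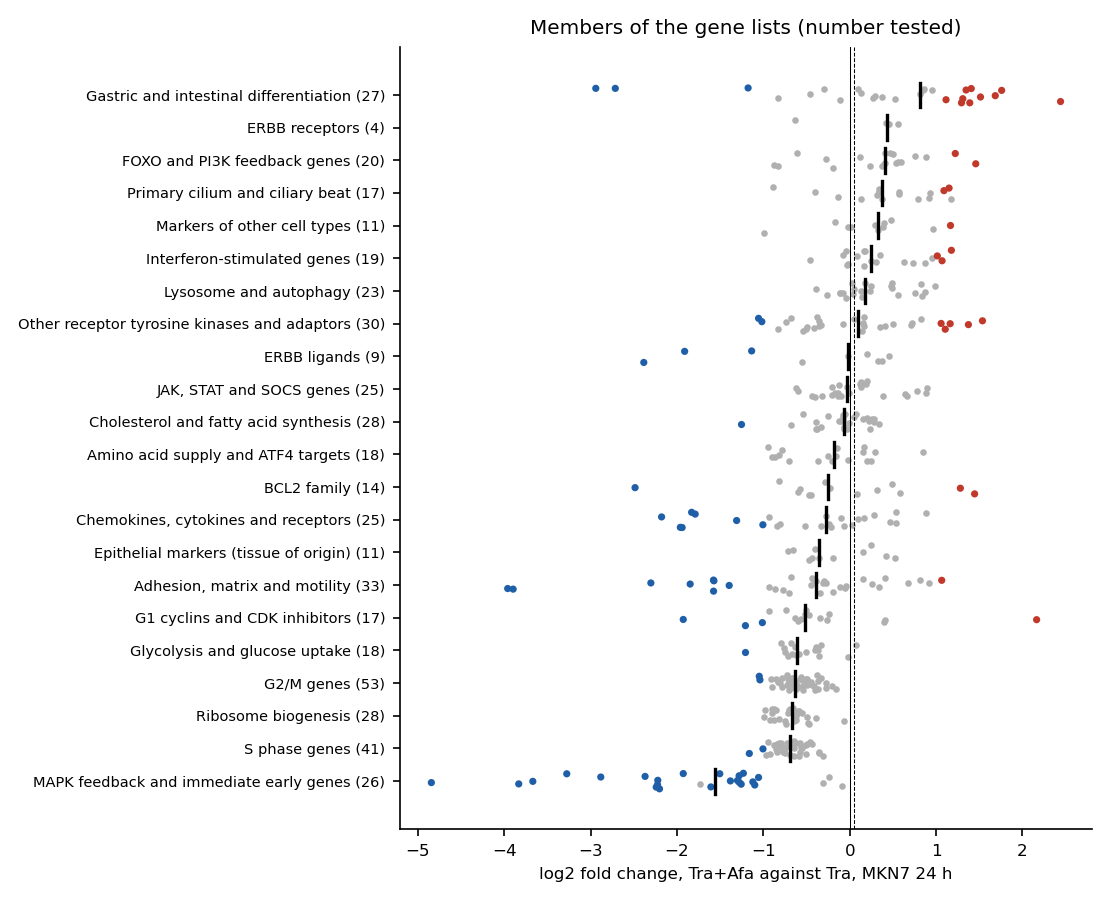
Log2 fold change of Tra+Afa against Tra in MKN7 at 24 h for each tested member of 22 gene lists, ordered by the list's median (black bar), with regulated members in blue (lower) or red (higher), the others in grey, and the median of all genes as a dashed line. MAPK genes reach from -4.84 to -0.08, whereas S phase, G2/M and ribosome biogenesis genes form narrow clouds with medians from -0.69 to -0.63.

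Other receptor kinases and their adaptors changed in single genes. Of 30 tested, 5 were regulated higher and 2 lower, beside 8.27% and 2.28% of all genes tested. CBLB, NTRK2, PDGFRB, ALK and FGFR2 were the higher ones, and EPHA2 and KIT the lower ones. CBLB, a ubiquitin ligase that acts on activated receptors, had 28.0, 22.74 and 16.39 CPM with Tra and 70.42, 66.05 and 55.31 CPM with Tra+Afa, 2.90-fold higher. The others of the 5 had means of at most 5 CPM with Tra. NTRK2 was at 0.0992 CPM with Tra and 0.259 CPM with Tra+Afa, and in afatinib against untreated its log2FC was -0.22 (edgeR adjusted p = 0.51). MET (-0.08) and AXL (0.15), 2 receptors with high counts in these cells, did not pass the threshold. In the cilium list 2 of 17 genes were regulated, DNAI1 and DNAI2, beside 10.6% of all genes tested. Both were at about 1 CPM or less, and DNAI2 lost its call in DESeq2, without a filter and without replicate 1 or 3. PDGFRB was also the only regulated gene among the markers of other cell types. Of the 11 epithelial markers 7 were lower and 4 higher by adjusted p, beside 28.4% and 30.3% of all genes tested. None of the 11 went beyond the fold limit.

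SUSD2, a membrane protein, had 11.26, 9.75 and 5.815 CPM with Tra and 63.47, 54.32 and 35.86 CPM with Tra+Afa (log2FC 2.52, SE 0.10, edgeR adjusted p = 3.8e-14). ACKR3, a scavenging receptor for the chemokine CXCL12, had 18.58, 19.05 and 8.606 CPM with Tra and 77.91, 77.19 and 60.86 CPM with Tra+Afa, 4.84-fold higher. In both genes replicate 3 was lowest in each group. GASK1B was at 1.52 ± 0.744 CPM and 9.93 ± 2.68 CPM (log2FC 2.73), and GLP2R, the receptor for the gut hormone GLP-2, at 2.90 and 14.1 CPM in the mean (2.30). The pregnancy-specific glycoprotein genes, normally products of the placental trophoblast, were looked at as a family after 4 of them appeared among the 15 largest rises. All 7 protein-coding PSG genes tested, these 4 among them, were regulated higher, beside 8.27% of all genes tested. Their log2FC ran from 1.91 to 2.79, with a median of 2.39. They lie together on chr19:42752686-43269530 (GRCh38). PSG5 had 3.46, 2.554 and 0.698 CPM with Tra and 17.23, 15.99 and 11.07 CPM with Tra+Afa, 6.92-fold higher. Since these genes are near-identical in sequence, reads may have been shared among them, and the number of genes that rose is uncertain.

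**Figure D3:**
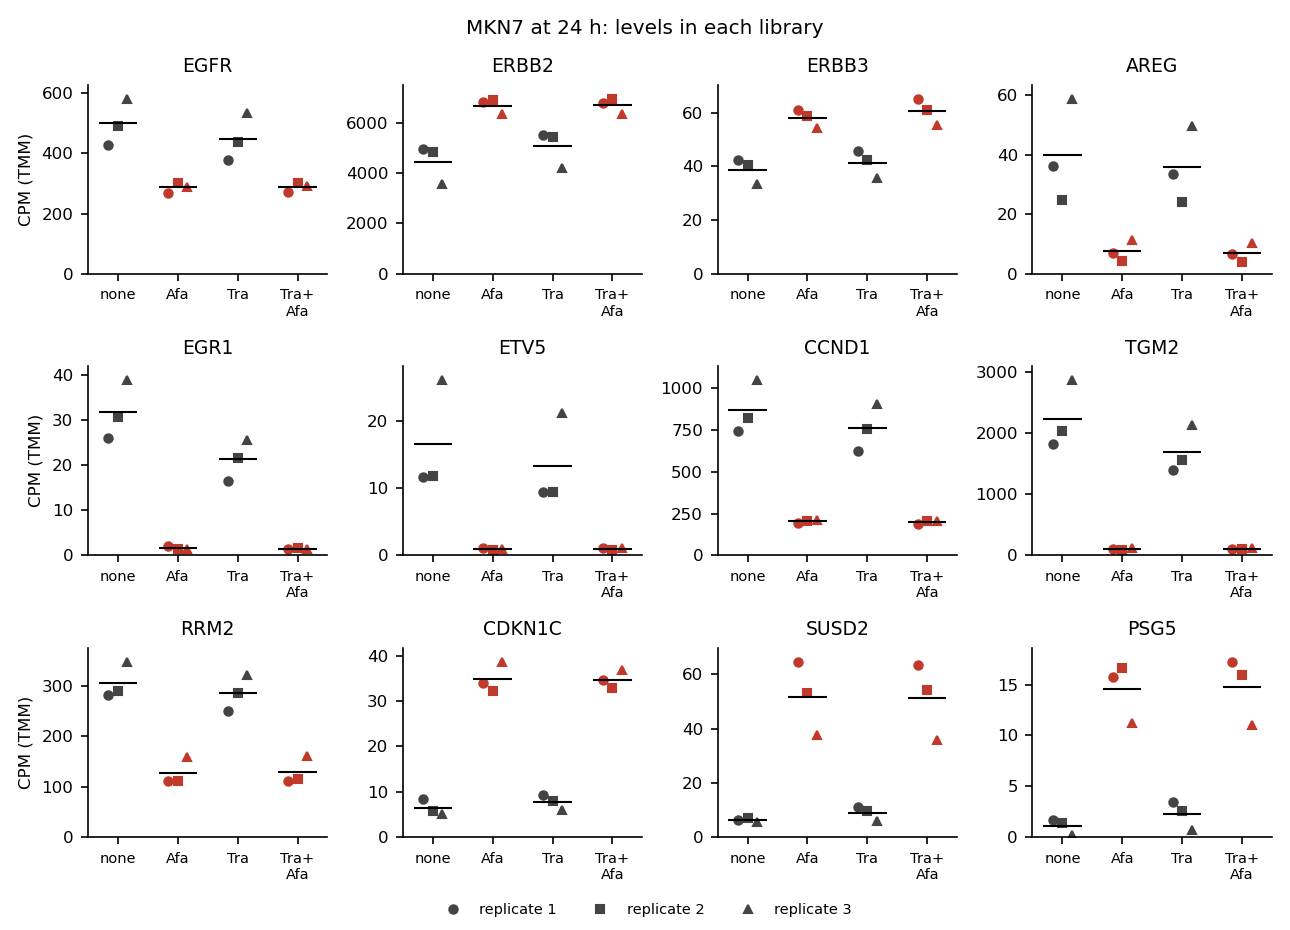
Levels of 12 genes in TMM-scaled CPM (y axis, from 0) in the MKN7 libraries of 24 h, by treatment, with circles, squares and triangles for replicates 1, 2 and 3, black bars for means and red for groups with afatinib. For the MAPK genes EGR1 and ETV5 the afatinib groups sit near 1 CPM with or without trastuzumab, and the spread is among the libraries without afatinib, where replicate 3 is highest.

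To see whether trastuzumab altered the response, the same change was set beside afatinib against untreated. The latter comparison had 2644 regulated genes of 18483 (14.3%), 2026 higher (11.0%) and 618 lower (3.34%). In all, 1600 genes were regulated in both, 82.1% of those with trastuzumab and 60.5% of those without, and all 1600 had the same direction. Of the 350 genes regulated only with trastuzumab, 332 had the same sign without it, and of the 1044 regulated only without it, 1024 had the same sign with it. Pearson's r of the log2FC values was 0.90 across the 18483 genes, which are not independent replicates. Of the 26 MAPK genes the median was -1.64 without and -1.56 with trastuzumab, and of the S phase genes -0.71 and -0.69. Over the 422 genes called lower, the median log2 difference by pair was -1.20, -1.21 and -1.53 with trastuzumab and -1.32, -1.35 and -1.73 without it. Over the 1528 called higher it was 1.17, 1.19 and 1.48 with and 1.26, 1.27 and 1.65 without. The difference in size over these sets was not tested. AREG differed by 0.03 (SE 0.10), CCND1 by 0.15 (SE 0.11) and BMF by -0.01 (SE 0.18) between both settings on the log2 scale. EGR1 differed by 0.43 (SE 0.47) and CTSE by -0.38 (SE 0.16). The interaction test found 0 genes at an adjusted p below 0.05 (edgeR, 0.0% of the genes tested, smallest adjusted p 0.56), with 1091 genes at an unadjusted p below 0.05, where 0.05 of the genes tested is 924. The median SE of this difference was 0.132. DESeq2 called 4 genes, CD109, SLC17A5, COL4A4 and EPB41L4B, edgeR without a filter on low counts called 157, and without replicate 3 it called 5. The smallest unadjusted p values belonged to MARCHF4, EPB41L4B, IFI6, TGM2 and SLC17A5. TGM2 fell by 3.90 with and by 4.36 without trastuzumab, a difference of 0.46 (SE 0.10), and IFI6 rose by 0.63 with and 1.14 without, a difference of -0.52 (SE 0.11). The mean of TGM2 was 1693 CPM with Tra and 2233 CPM in untreated cells, and 112 CPM with Tra+Afa and 108 CPM with Afa. In PSG5 the log2FC was 2.79 with and 3.81 without trastuzumab, a difference of -1.02 (SE 0.35) that did not pass.

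**Figure D4:**
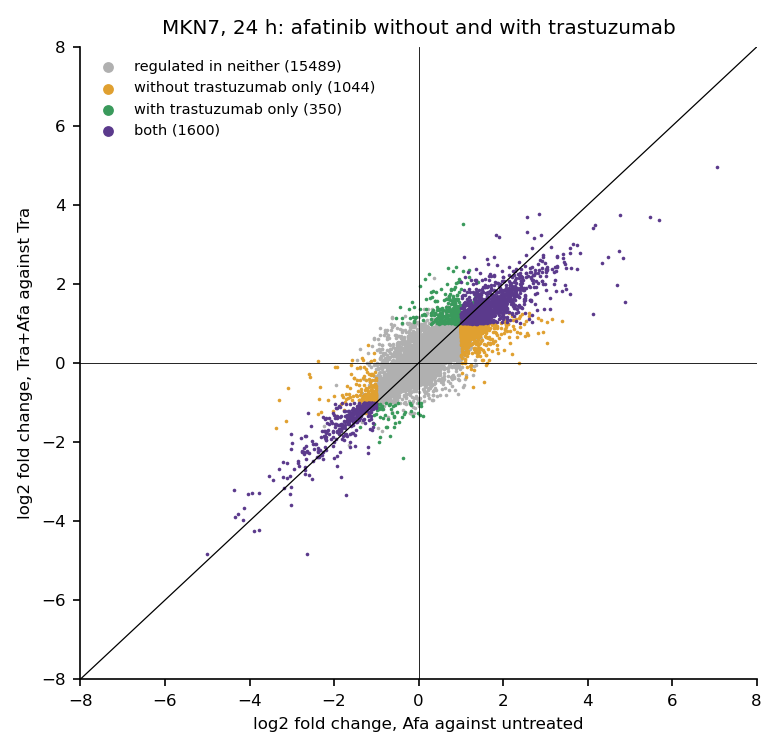
Log2 fold change of Tra+Afa against Tra (y axis) against that of Afa against untreated (x axis) in MKN7 at 24 h, with 1 point per gene, coloured by where it was regulated, and the line of equality. The 1600 genes regulated in both fall in the lower left and upper right quadrants.

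At 4 h, 683 genes were regulated by adding afatinib (3.70% of those tested), 427 higher (2.31%) and 256 lower (1.39%), and 325 of them were also regulated at 24 h, 321 in the same direction. These shared genes were 47.6% of the genes at 4 h and 16.7% of those at 24 h. The MAPK list was already low, with a median of -1.68 at 4 h and 19 regulated members, whereas the S phase and G2/M medians were 0.06 and 0.17 at 4 h. Ribosome biogenesis genes had a median of -0.47 at 4 h and glycolysis genes of -0.09, beside 0.02 over all genes tested. The test of the difference between time points passed for 5138 genes (27.8%), with the effect lower at 24 h in 15.6% and higher in 12.2% of genes tested, or for 1735 without the replicate block. It passed for 40 of 41 S phase genes and 53 of 53 G2/M genes, all lower at 24 h, and for 10 of 26 MAPK genes, 6 of these 10 lower at 24 h. SPRY4 had fallen by 5.05 (log2) at 4 h and differed by 0.21 (SE 0.61) at 24 h. CDKN1C had risen by 1.92 and differed by 0.24 (SE 0.22), and BMF had risen by 1.10 and differed by 0.18 (SE 0.19). These 3 genes did not pass the test of the difference between times. TGM2 fell by 0.64 at 4 h and by 3.90 at 24 h, a difference of -3.26 (SE 0.10, edgeR adjusted p = 3.2e-15). IGFBP4, CD44, CTSE and TFF2 likewise had log2FC of -0.49 to -0.36 at 4 h and lower values at 24 h, with an adjusted p of the difference of at most 1.1e-06 in edgeR. SUSD2 had a log2FC of -0.06 at 4 h (edgeR adjusted p = 0.74) and of 2.52 at 24 h, and the median of the PSG genes went from 0.66 to 2.39. The order was the opposite for TGFA, which fell by 1.32 at 4 h and 0.56 at 24 h, a difference of 0.77 (SE 0.07). The labels give 4 h and 24 h libraries as separate samples, so the difference between times is also a difference between sets of samples.

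N87 cells gave a larger response at 24 h, with 5717 of 20205 genes regulated (28.3%), 17.4% higher and 10.9% lower. Of 18294 genes tested in both lines, 1011 were regulated in both, 971 in the same direction and 40 in opposite directions, which is 52.2% of the genes of MKN7 and 21.7% of those of N87. The lines differed for 8843 genes (43.8%) in the interaction test, with the effect higher in MKN7 for 27.2% and lower for 16.6% of genes tested, and for 5554 without the replicate block. MAPK genes were low in both lines, with a median of -1.56 in MKN7 and -2.08 in N87. Of 25 MAPK genes tested in both lines 14 differed, and in only 3 of these was the effect lower in MKN7. DUSP6, for example, had log2FC of -3.28 in MKN7 and -5.01 in N87. CCND1 (-1.93 and -1.98), SPRY4 (-4.84 and -5.42) and ERBB2 (0.42 and 0.41) did not pass the test of the difference. S phase genes differed for 41 of 41 members, each lower in N87, with a median of -0.69 in MKN7 and -1.94 in N87. RRM2 fell by 1.16 in MKN7 and by 3.46 in N87, a difference of 2.29 (SE 0.09, edgeR adjusted p = 5.8e-15). In the PI3K branch 13 of 20 FOXO and feedback genes differed, all higher in N87, among them PIK3IP1 with log2FC of 1.22 and 3.72. BMF rose by 1.28 in MKN7 and 3.77 in N87, whereas HRK rose by 1.45 in MKN7 and was at 0.10 in N87 (difference 1.34, SE 0.23). ERBB3 had log2FC of 0.56 and 1.61 (difference -1.06, SE 0.07). MKN7 and N87 libraries differ in their cells as well as in culture and preparation, which cannot be told apart here.

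**Figure D5:**
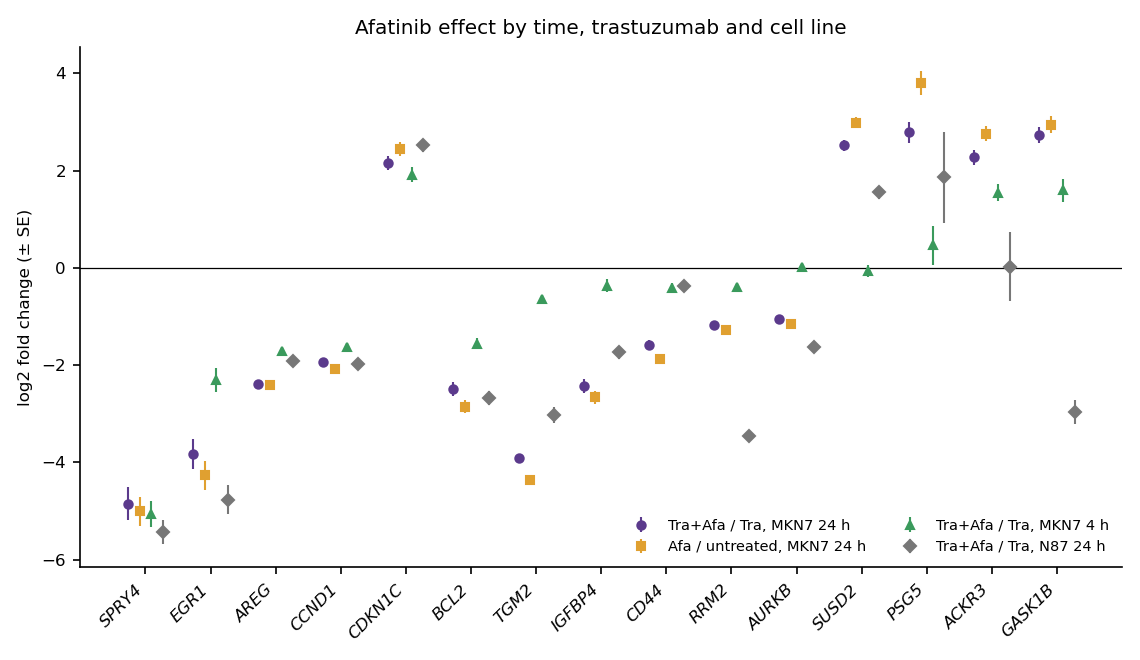
Log2 fold change with its SE (y axis) of 15 genes in 4 comparisons: Tra+Afa against Tra and Afa against untreated in MKN7 at 24 h, Tra+Afa against Tra in MKN7 at 4 h, and the same in N87 at 24 h. SPRY4 and CCND1 are low throughout, TGM2 and IGFBP4 fall mainly at 24 h, and GASK1B is at 2.73 in MKN7 and -2.96 in N87.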

How the data were processed

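Counts of the 6 libraries compared, 18 further MKN7 libraries and 12 N87 libraries were used, and the other 96 libraries were not used here. Per the labels, the libraries were made from polyA RNA with a directional kit, and the submitters' processing notes name Trim Galore, STAR and the build hg38. The authors deposited raw counts per Ensembl gene, and the counting tool, annotation and strand setting are not given in the sources used here, so overlapping and antisense genes are uncertain. Symbols and coordinates came from GENCODE release 29 (GRCh38), which lacks 8404 of the 65217 identifiers.

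All 24 MKN7 libraries entered 1 fit (edgeR 4.0.16 in R 4.3.3, TMM, filterByExpr with defaults of 10 counts and 15 in total, glmQLFit) with a mean per condition and the replicate number within each time point as a block. Contrasts were tested with glmQLFTest, and p-values were adjusted by Benjamini-Hochberg over all genes tested. The comparison with N87 used a second fit of the 24 libraries of both lines at 24 h. CPM are TMM-scaled, and log2 CPM have a prior count of 2. The pairing came from the labels' numbers: deviations from group means correlated between same-numbered libraries in all 18 pairs of 24 h groups (r from 0.31 to 0.53). Sample numbers ran in 2 series that separate replicate 1 from replicates 2 and 3, which the block covers. Replicates of a group differed by more than sampling noise, with a mean chi-square per gene of at least 17.95. The fit was tested on simulated counts. At these depths 3 counts correspond to 0.0545 to 0.0646 CPM, and such limits cover counting error only. P-values rest on 3 replicates per group.

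Genes were named by rule: the ERBB receptors, up to 4 regulated members of each of 22 lists and members a statement turns on, the 15 largest rises and falls among protein-coding regulated genes of at least 1 log2 CPM that moved alike in all pairs, and the 5 smallest p-values of each interaction. Of 576 list entries all but 1 matched a gene. The comparison, lists and rules were chosen with earlier results of these data known. IGFBP4 and CTSE came from the largest falls, and the PSG family and the CArG box were chosen after their values or sequence were seen. Promoter windows were those of RefSeq (GRCh38.p14), 1 per gene. Alternatives were no block, a block over both times, fewer libraries, DESeq2 1.42.0, other scalings, other filters and leaving out each replicate.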

Additional observations from a re-analysis of the deposited data

Results flagged for a closer look

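The effect of adding afatinib to trastuzumab in MKN7 differed between 24 h and 4 h for 5138 genes and between MKN7 and N87 at 24 h for 8843 genes, by interaction tests in edgeR. The genes below were the 5 with the smallest p-value in each of these tests, together with named genes regulated in opposite directions, and each is given as a difference of log2 fold changes.

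Between times, TGM2 was lower at 24 h by -3.26, SRPX2, a secreted protein, by -2.04, MARCHF4, a ubiquitin ligase, by -1.63, the transcription factor NFE2L3 by -1.16 and the kinetochore gene NDC80 by -1.11. NDC80 had a log2FC of 0.55 at 4 h and -0.56 at 24 h, so that it turned from higher to lower.

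Between lines, MKN7 minus N87 was 3.15 for the tubulin gene TUBA4A, 2.80 for the replication factor MCM10, 2.53 for the coagulation gene F3 (tissue factor), 2.30 for the thioredoxin reductase TXNRD1 and 1.92 for the phosphofructokinase PFKP. TUBA4A had log2FC of 0.64 in MKN7 and -2.51 in N87, and TXNRD1 of 0.89 and -1.42. MCM10, F3 and PFKP fell in both lines, by 0.72, 0.70 and 0.39 in MKN7.

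Regulated in opposite directions were GASK1B (difference 5.69), at 2.73 in MKN7 and -2.96 in N87, NTRK2 (2.92), at 1.37 and -1.55, and TFF1 (-4.78), at -2.94 and 1.85. In afatinib against untreated in MKN7 the log2FC of NTRK2 was -0.22 and did not pass the threshold (edgeR adjusted p = 0.51), and without replicate 2 its rise over Tra did not pass (adjusted p = 0.059 in edgeR). NTRK2 in MKN7 and TFF1 in N87 had means below 0.4 CPM in both groups, near the level of a few counts.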

How the results depend on the processing

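With at least 10 counts required in every library, 1022 genes were regulated (745 higher, 277 lower), 1506 in afatinib against untreated and 374 at 4 h, since fewer low genes were tested. The test of the effect with against without trastuzumab called 4 genes in DESeq2 and 157 without a filter, and 0 to 5 when each replicate was left out. Without the replicate block 1793 genes were regulated in place of 1950, and the tests between times and between lines called 1735 and 5554. Leaving out each replicate gave 1559 to 2018 regulated genes, the lowest without replicate 3. Of 970 values of the 82 named genes under alternatives, none changed sign and 957 kept their side of the threshold. The 13 that lost it belonged to the scarce genes CCL20, IFI44L, RSAD2, DNAI2 and NTRK2. Of 264 list medians 256 moved by less than 0.136, the SD over pairs pooled over the lists, and 212 by less than the list's own SD. Scaling by library size alone raised all 22 medians by about 0.11, more than the own SD in 16 lists, and turned the sign for the ERBB ligands (0.09), cholesterol synthesis and JAK/STAT genes. The 8 larger moves were in 4 lists: the ERBB ligands (-0.31 with only the 6 libraries, -0.52 with the strict filter), the MAPK genes (-1.31 with the strict filter), differentiation (0.64 with only the 6 libraries) and the markers of other cell types. Without single replicates the ligand median ranged from -0.26 to 0.00441, the MAPK median from -1.55 to -1.32 and the marker median from 0.0717 to 0.377. With 3 libraries per group, changes of genes below 1 CPM are the least precise.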
